A study of Mus musculus with 6 samples.

Results

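The acute phase genes are a set of 10 genes for secreted proteins: Lcn2, Ptx3, Saa1, Saa2, Saa3, Hp, Cp, Serpina3n, Orm1 and Orm2. They were listed by name, and for each the probe set with exactly 1 gene symbol and the highest mean was taken. All 10 were present among the 19926 genes measured, each with 1 such probe set, and all were tested because no filter on dim signals was applied. The cells were cultured primary astrocytes, a type of brain glia, from C57BL/6J mice. One group was treated for 24 h with the inflammatory cytokine tumour necrosis factor (TNF, 50 ng/mL), and the other was a control group of the same time. Each group comprised 3 samples numbered 1 to 3, with 1 Affymetrix Mouse Gene 1.0 ST array per sample. The age of the mice is not given in the sources used here, and the labels do not say whether the 3 samples of a group were separate cultures or animals. The p-values therefore rest on a spread between samples that could be technical. Values are log2 signals made by the authors with RMA, and all differences are TNF minus control on the log2 scale.

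The acute phase response is the change in secreted proteins that follows infection or injury. It is best known from the liver, where interleukin-6, interleukin-1 and TNF act through the transcription factors STAT3, C/EBP and NF-kB. In the brain, Lcn2 and Serpina3n are used as markers of reactive astrocytes. The proteins have separate tasks: some bind iron siderophores, haem proteins or copper, some recognise microbes, some bind lipid, and some inhibit proteases.

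TNF cultures differed strongly from controls in Lcn2 and Ptx3, moderately in Saa3, and by less than 1 on the log2 scale in Serpina3n and Cp. The other 5 genes, Saa1, Saa2, Hp, Orm1 and Orm2, had differences between -0.06 and 0.30. With limma, 4 of the 10 were higher at an adjusted p under 0.05 and 0 were lower, where 3.87% of all genes tested were higher and 3.33% lower. At an unadjusted p under 0.05, 5 were higher and 0 lower, where 9.15% of all genes were higher and 9.73% lower. In 5 of the 10, Cp being the fifth, every TNF array lay above every control array, which held for 12.3% of all genes. With the replicate number as a block, 5 were higher, against a background of 9.73%. The median difference of the 10 was 0.49, beside -0.003 for all genes. The 10 genes were chosen with earlier results of these data known, so these counts are descriptions and not a test against the background. In cultures of mixed cells, more cells of a type and more RNA per cell cannot be told apart.

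**Figure D1:**
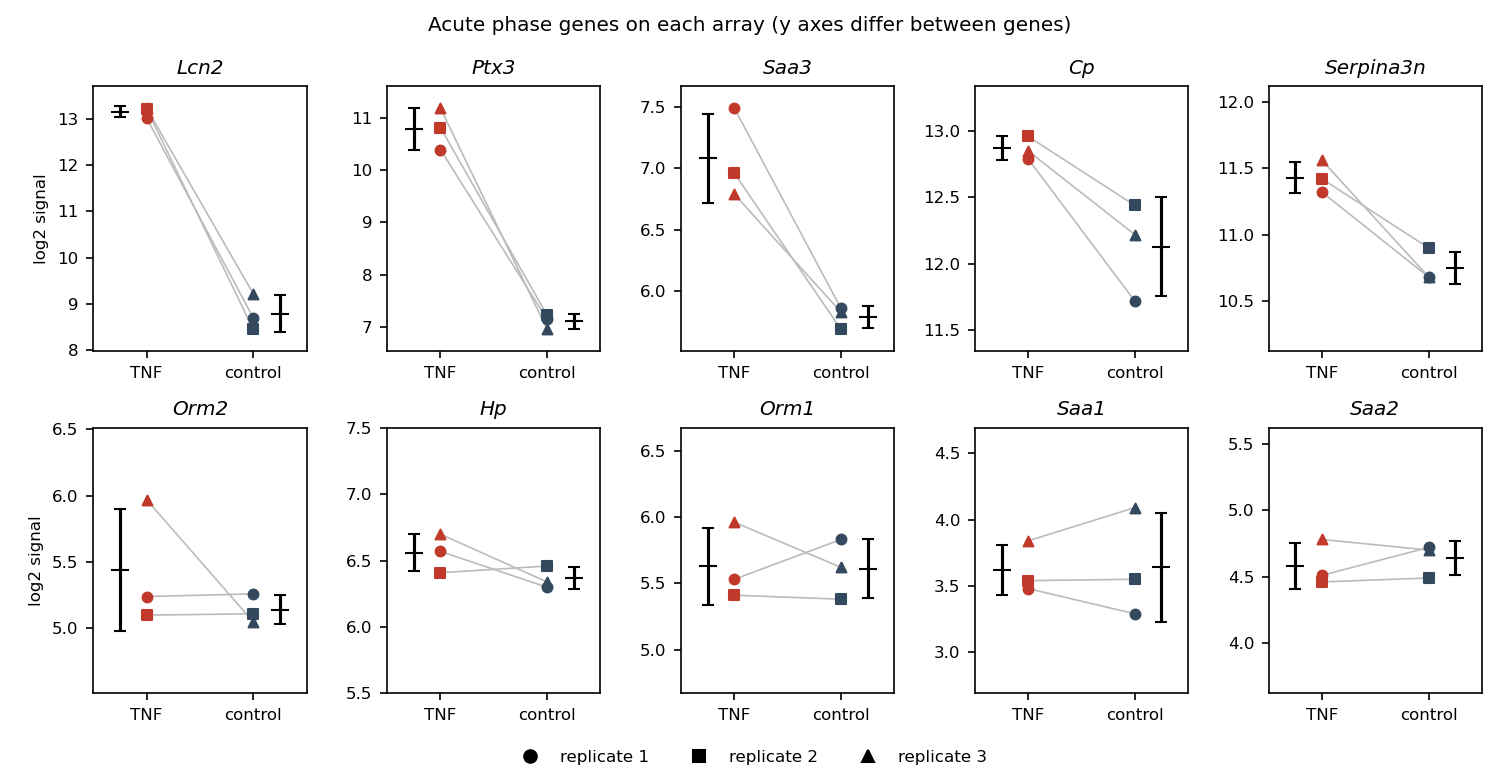
Log2 signal of the 10 acute phase genes, 1 panel a gene with its own y axis. Points are arrays, with TNF left of control, marker shapes give the replicate number, grey lines join arrays of the same number, and the bars beside the points are the mean ± SD of 3 arrays. The groups are fully separated in the upper row and overlap in the lower row.

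Lipocalin-2, encoded by Lcn2, binds bacterial iron siderophores and so withholds iron from microbes. Its signal was 13.02, 13.22 and 13.23 in TNF cultures 1, 2 and 3, against 8.70, 8.45 and 9.22 in control cultures 1, 2 and 3. The TNF arrays lay close together while the controls were spread, with control 3 the highest (SD 0.12 with TNF and 0.40 in controls, n = 3 each). Lcn2 rose by 4.36 (SE 0.20, 95% interval 3.91 to 4.82), a 20.6-fold difference in signal with limma adjusted p = 3.44e-05. It was the gene with rank 17 of 19926 by size of increase. The difference was 4.32, 4.77 and 4.01 in pairs 1, 2 and 3, and the smallest pair was the one whose control was highest.

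Pentraxin 3, encoded by Ptx3, is a soluble pattern recognition protein that binds microbes and complement C1q. Its signal was 10.39, 10.81 and 11.18 in TNF cultures 1 to 3, against 7.15, 7.23 and 6.96 in controls 1 to 3. Here the spread lay in the TNF arrays (SD 0.40) rather than in the controls (SD 0.14). Ptx3 rose by 3.68 (SE 0.20, 95% interval 3.22 to 4.14), or 12.8-fold, with limma adjusted p = 6.49e-05 and rank 35 by size. Its pair differences were 3.24, 3.58 and 4.22, so that replicate 3 gave the largest difference for Ptx3 and the smallest for Lcn2.

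Serpina3n encodes an extracellular serine protease inhibitor related to human alpha-1-antichymotrypsin. Its signal was 11.32, 11.42 and 11.56 in TNF cultures 1 to 3, against 10.68, 10.90 and 10.68 in controls 1 to 3. The groups did not overlap, and both had an SD of 0.12. Serpina3n rose by 0.68 (SE 0.12, 95% interval 0.40 to 0.96), or 1.60-fold, with limma adjusted p = 0.0143. The call was lost without TNF 2 (adjusted p = 0.056), without control 1 (0.0681), without control 3 (0.0578) and without both arrays of replicate 3 (0.0904). These fits had no block. With the replicate number as a block, on all 6 arrays, Serpina3n passed as higher (SE 0.09, limma adjusted p = 0.00229).

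The promoters of these 3 genes are shown because they belong to members that rose. Each line gives the 250 bases before the gene's start from RefSeq (GRCm38.p6), 5′ to 3′ on the strand of the gene. Capitals mark matches, on either strand, to the C/EBP motif TTNNGNAA or to the outer bases of an NF-kB site, GGG and CC with any 5 bases between them.
Lcn2, chr2:32387740-32387989, - strand: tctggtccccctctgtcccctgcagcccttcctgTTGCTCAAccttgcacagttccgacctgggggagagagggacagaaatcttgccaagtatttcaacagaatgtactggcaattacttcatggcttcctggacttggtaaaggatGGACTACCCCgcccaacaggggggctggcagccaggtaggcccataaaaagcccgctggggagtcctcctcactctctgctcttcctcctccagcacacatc
Ptx3, chr3:66219637-66219886, + strand: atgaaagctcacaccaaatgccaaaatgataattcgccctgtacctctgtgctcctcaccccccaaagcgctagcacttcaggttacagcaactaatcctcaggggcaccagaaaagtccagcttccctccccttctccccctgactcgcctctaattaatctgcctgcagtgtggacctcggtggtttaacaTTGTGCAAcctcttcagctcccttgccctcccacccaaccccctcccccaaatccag
Serpina3n, chr12:104406458-104406707, + strand: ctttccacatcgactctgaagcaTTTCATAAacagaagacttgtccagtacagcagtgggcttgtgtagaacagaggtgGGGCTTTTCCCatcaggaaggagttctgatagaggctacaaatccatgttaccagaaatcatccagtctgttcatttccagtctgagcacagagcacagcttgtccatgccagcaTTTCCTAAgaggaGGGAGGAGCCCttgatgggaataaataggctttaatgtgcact

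Windows were matched for 8 of the 10 members, all but Hp and Orm1, with a pair of windows for Cp. The C/EBP motif was found in 8 of these 8 members, and in 36.8% of 32851 windows of all genes. In Ptx3 the match began 57 bases before the start, and in Lcn2 it began 216 bases before. The outer bases of an NF-kB site were found in 5 of 8 members (Lcn2, Serpina3n, Cp, Saa1 and Saa2) and in 45.8% of all windows. The stricter NF-kB consensus, whose matches are a subset of these, was in 0 of 8 members and 3.90% of windows. The STAT motif TTCNNNGAA was in 0 of 8 and 7.02% of windows, the AP-1 motif TGANTCA in 2 of 8 (Cp and Orm2) and 6.75%, and TATAAA in the same pair of members and 12.4%. All motifs were searched on both strands. Members were counted by gene and the background by window, and the Saa1 and Saa2 windows are 94.8% identical. The shares are therefore not like for like and do not test enrichment. A match is a description of letters in these windows, and members that differed and members that did not hold C/EBP matches alike.

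Ceruloplasmin, encoded by Cp, is a copper-carrying ferroxidase that astrocytes also display at their surface. Its signal was 12.79, 12.96 and 12.85 in TNF cultures 1 to 3, against 11.72, 12.44 and 12.22 in controls 1 to 3. Every TNF array lay above every control, and control 1 was well below the other controls (SD 0.09 with TNF and 0.37 in controls). The difference was 0.74 (SE 0.18, 95% interval 0.31 to 1.17), or 1.67-fold, and did not pass over all genes (limma adjusted p = 0.0544). With the replicate number as a block it passed as higher (SE 0.12, adjusted p = 0.00412), with pair differences of 1.07, 0.52 and 0.63. On all 6 arrays without the block, Cp also passed without genes below the median signal (0.0329), without genes below the lower quartile of mean signal (0.0462), with trend and robust variance (0.0252) and with array weights (0.0254), and on 5 arrays without control 2 (0.0388).

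**Figure D2:**
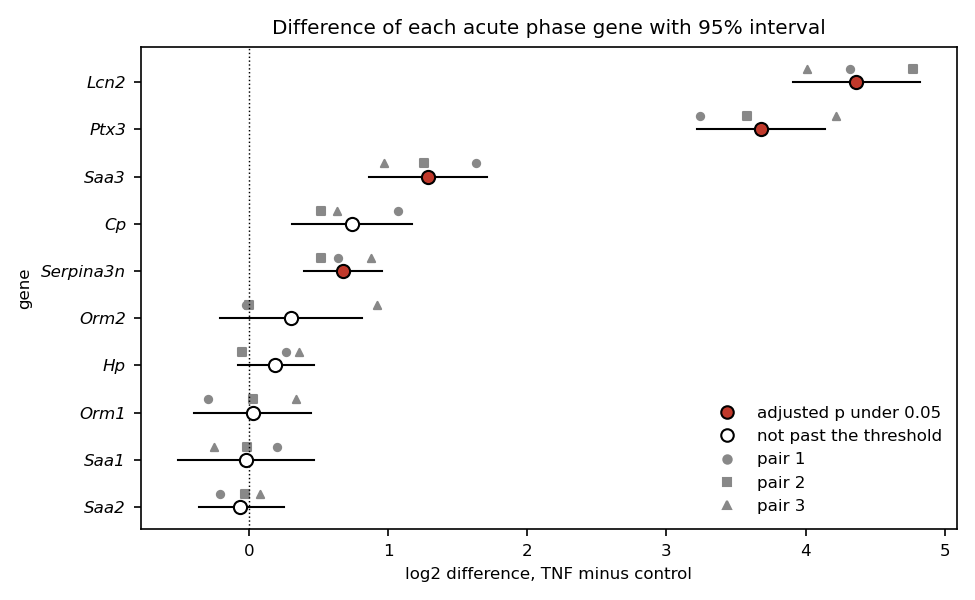
Log2 difference, TNF minus control, of the 10 acute phase genes, largest at the top. Circles with lines are the limma estimates with 95% intervals, filled where the adjusted p was under 0.05, and small grey markers are the differences of pairs 1 to 3. Lcn2 and Ptx3 stand at 4.36 and 3.68, and the intervals of the 5 lowest genes include 0.

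Serum amyloid A proteins are small apolipoproteins of high-density lipoprotein. In mice Saa1 and Saa2 are made chiefly in liver, while Saa3 is made in many tissues outside it. Saa3 had signals of 7.49, 6.96 and 6.79 in TNF cultures 1 to 3, against 5.86, 5.69 and 5.83 in controls 1 to 3. The groups did not overlap, and TNF 1 stood above the other TNF arrays. Saa3 rose by 1.29 (SE 0.18, 95% interval 0.86 to 1.71), or 2.44-fold, with limma adjusted p = 0.00564, and its pair differences were 1.63, 1.26 and 0.97. All 3 control signals lay below the lower quartile of their arrays, so the fold may be compressed.

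Saa1 had signals of 3.48, 3.54 and 3.84 in TNF cultures 1 to 3, against 3.29, 3.55 and 4.09 in controls 1 to 3. Saa2 had 4.51, 4.46 and 4.78 with TNF, against 4.72, 4.49 and 4.70 in controls. Both genes overlapped fully between groups and lay below the lower quartile of all genes on all 6 arrays. Their differences were -0.02 (95% interval -0.51 to 0.47) for Saa1 and -0.06 (95% interval -0.36 to 0.25) for Saa2, so an increase of the size of Saa3 lay outside both intervals. No detection calls were used, and signals this dim may lie near background, where a change would be compressed.

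The 4 serum amyloid genes measured lie near each other on chromosome 7 in RefSeq, in the order Saa3, Saa4, Saa1, Saa2. Saa4, which is made constitutively, differed by -0.03 (SE 0.20, limma adjusted p = 0.983). Against the mean of the other 3 genes, which differed by -0.04, Saa3 changed by 1.32 more, and this gap was wider on every TNF array than on any control array. The exact permutation test of that gap, two-sided and chosen after the values were seen, gave p = 0.10, the smallest that 3 arrays against 3 allow. Groups that do not overlap always give this p, so the test adds nothing to the separation itself. The other 3 genes were dim, and the gap largely restates the rise of Saa3.

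The promoters of Saa3, Saa1 and Saa2 are shown because Saa3 was called higher while its dim relatives Saa1 and Saa2 were not. They come from the same source, with the same bases in capitals as above.
Saa3, chr7:46715677-46715926, - strand: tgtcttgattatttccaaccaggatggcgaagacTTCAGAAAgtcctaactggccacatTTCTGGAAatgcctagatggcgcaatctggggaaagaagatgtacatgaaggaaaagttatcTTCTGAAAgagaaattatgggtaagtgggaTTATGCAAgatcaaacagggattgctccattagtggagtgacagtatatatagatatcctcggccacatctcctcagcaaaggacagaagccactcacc
Saa1, chr7:46742981-46743230, - strand: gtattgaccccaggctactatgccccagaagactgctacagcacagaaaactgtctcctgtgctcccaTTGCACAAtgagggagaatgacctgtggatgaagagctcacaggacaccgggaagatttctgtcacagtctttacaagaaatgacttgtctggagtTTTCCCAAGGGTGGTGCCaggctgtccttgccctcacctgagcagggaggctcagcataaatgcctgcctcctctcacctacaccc
Saa2, chr7:46751583-46751832, + strand: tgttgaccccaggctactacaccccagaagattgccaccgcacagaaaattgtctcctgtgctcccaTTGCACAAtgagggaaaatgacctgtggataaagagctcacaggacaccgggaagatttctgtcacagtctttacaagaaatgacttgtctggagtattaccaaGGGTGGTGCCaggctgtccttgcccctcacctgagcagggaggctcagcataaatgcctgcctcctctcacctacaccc

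The Saa1 and Saa2 windows were 94.8% identical over 251 aligned positions, while Saa3 was 52.2% identical to Saa1 and 52.4% to Saa2. Saa1 and Saa2 are close copies, so their probe sets may also pick up each other's transcripts. The Saa3 window held 4 C/EBP matches, the nearest beginning 99 bases before the start, and no NF-kB outer bases. Saa1 and Saa2 each held 1 match to the NF-kB outer bases, beginning 78 and 79 bases before the start, and in Saa1 a C/EBP match ended directly before it.

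Haptoglobin, encoded by Hp, captures free haemoglobin. Its signal was 6.57, 6.41 and 6.70 in TNF cultures 1 to 3, against 6.30, 6.46 and 6.34 in controls 1 to 3. The groups overlapped through replicate 2, and the difference of 0.19 (SE 0.12, 95% interval -0.08 to 0.47) did not pass (limma adjusted p = 0.479).

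Orosomucoids, encoded by Orm1 and Orm2, are plasma lipocalins that carry drugs and lipids. Orm1 had 5.53, 5.41 and 5.96 in TNF cultures 1 to 3, against 5.83, 5.38 and 5.62 in controls 1 to 3, a difference of 0.03 (SE 0.18, limma adjusted p = 0.984). Orm2 had 5.24, 5.10 and 5.97 with TNF, against 5.26, 5.11 and 5.05 in controls. Only TNF 3 stood above the controls in Orm2, and the difference of 0.30 (SE 0.22, 95% interval -0.21 to 0.81) did not pass (adjusted p = 0.60). Orm3, which lies between the pair on chromosome 4, differed by 0.05 (SE 0.22), and its pair differences were -0.29, -0.29 and 0.71. The lower quartile of all genes was itself higher on TNF 3, at 6.33, than on TNF 1 and TNF 2, at 6.01 and 6.06. It was also higher on control 3, at 6.27, than on controls 1 and 2, at 6.09 and 6.08, and there Orm2 was the lowest of the controls. Its part in the dim Orm signals was not tested.

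**Figure D3:**
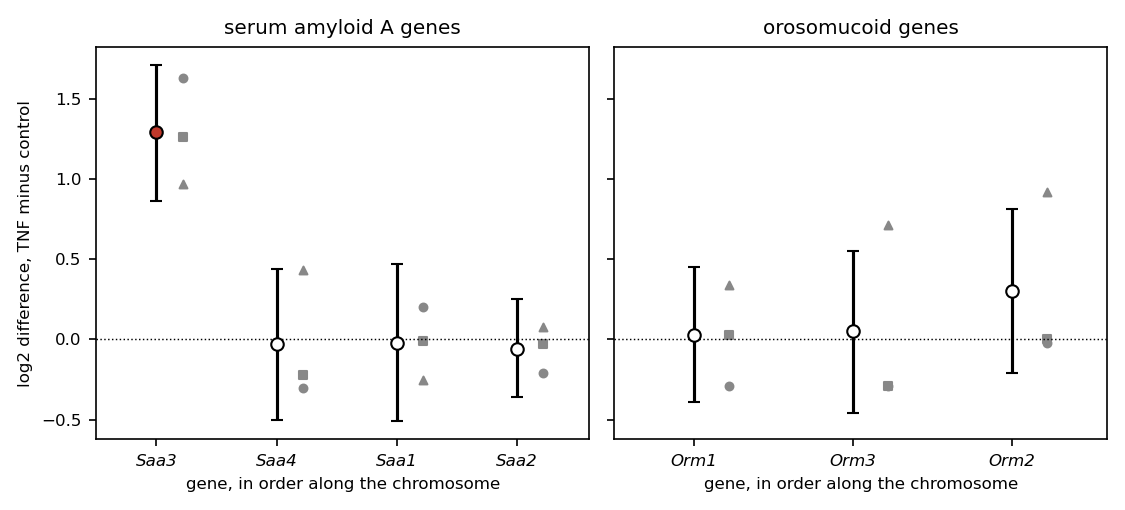
Log2 difference, TNF minus control, of the serum amyloid A genes (left) and the orosomucoid genes (right), in their order along the chromosome. Circles are limma estimates with 95% intervals, filled where the adjusted p was under 0.05, and grey circles, squares and triangles are pairs 1, 2 and 3. Saa3 stands at 1.29 while the other 6 genes have intervals that include 0.

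The profile of Lcn2 over the 6 arrays was closest, by Pearson correlation, to those of Gbp5 (0.9996), Cxcl16 (0.9995), Xaf1 (0.9988), Micall2 (0.9987) and Rtp4 (0.9986). These are descriptions over 3 TNF and 3 control arrays that share 1 treatment, and any strongly raised gene correlates highly. Their differences were 5.67 for Gbp5, a guanylate-binding GTPase, 4.00 for the chemokine Cxcl16, 3.35 for Xaf1, 1.58 for Micall2 and 3.53 for Rtp4. In all 5, as in Lcn2, control 3 was the highest control: Gbp5 was 6.59 in control 3, against 5.84 and 5.77 in controls 1 and 2. The 5 genes were picked for likeness to Lcn2 over these same arrays, so this shared pattern follows largely from the choice. Among the other members Ptx3 came nearest (0.98, rank 182), followed by Serpina3n (0.94), Saa3 (0.94) and Cp (0.85).

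Most other positive acute phase genes did not pass. Of 22 measured, 4 rose and 2 fell, where 3.87% of all genes rose and 3.33% fell. The median difference was 0.03. The blocked fit called 5 higher and 3 lower, where 9.73% of all genes were higher and 11.8% lower. Lbp, which presents bacterial lipopolysaccharide to Cd14, was 12.16, 10.96 and 12.28 in TNF cultures 1 to 3, against 9.81, 8.63 and 9.80 in controls 1 to 3. Replicate 2 was the lowest in both groups, and the pair differences of 2.34, 2.33 and 2.48 were nearly equal. Lbp rose by 2.38 (SE 0.43, 5.22-fold, limma adjusted p = 0.0152). The metalloreductase Steap4 rose by 2.16 (SE 0.33, adjusted p = 0.00836), Serping1, the C1 inhibitor, by 0.97 (adjusted p = 0.0201) and Cd14 itself by 0.71 (adjusted p = 0.0211). Mt1, a metallothionein that binds zinc and copper, fell by 0.70 (adjusted p = 0.0136), and Itih3, an inter-alpha-trypsin inhibitor heavy chain, fell by 0.97 (adjusted p = 0.0367).

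The fibrinogen chains Fga, Fgb and Fgg (0.04, -0.17 and 0.11), the pentraxin Apcs (0.02) and the iron hormone Hamp (0.12) did not pass. Crp, the pentraxin C-reactive protein, differed by 0.42 (adjusted p = 0.0649) and passed as higher with the block (0.00786). F3 differed by -0.42 and passed as lower with the block (0.0499), and Serpina1c at -0.60 did not pass. Crp, Fgg, Apcs, Hamp and Serpina1c lay below the lower quartile of all genes on all 6 arrays. Fga and Fgb were above it on 1 array each. Signals this dim may lie near background, where a change would be compressed. The call of Lbp was lost without TNF 1 (adjusted p = 0.0541). With the block on all 6 arrays Lbp passed as higher (SE 0.08, limma adjusted p = 5.99e-06). When single arrays were omitted, Steap4 was called every time, Mt1 in 3 of 6 fits, Cd14 and Serping1 in 2 and Itih3 in 1. The highest adjusted p was 0.072 for Serping1, without TNF 2, and without control 1 it was 0.0647 for Mt1, 0.0805 for Cd14 and 0.126 for Itih3. Fewer members were called without 1 array: 2 rose without TNF 1, TNF 2 or control 2, while 0 fell without TNF 1, control 1 or control 3 and 1 fell without TNF 2 or TNF 3. Without both arrays of replicate 3, 1 rose and 0 fell. Of 10 negative acute phase genes, whose liver transcripts fall during the response, 0 passed in either direction, where 7.2% of all genes did. With the block in limma 0 passed too, and 0 had an unadjusted p under 0.05 (median -0.05). Albumin, Alb, differed by -0.09. Alb, Ahsg, Rbp4 and Serpina6 lay below the lower quartile of all genes on all 6 arrays, where a fall may be compressed. Ttr varied widely between arrays (SE 0.90), so these counts do not show that the genes were unchanged.

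Of 16 cytokines and receptors that induce the response, 4 rose and 0 fell (median 0.44), where 3.87% of all genes rose and 3.33% fell. Il6 was 5.38, 5.83 and 4.93 in TNF cultures 1 to 3, against 3.51, 3.83 and 3.49 in controls 1 to 3, and rose by 1.77 (SE 0.22, limma adjusted p = 0.00359). It lay below the lower quartile on all 6 arrays, where a change may be compressed. Its relative Lif rose by 1.02 (adjusted p = 0.0133). Among receptors, Osmr, the oncostatin M receptor, rose by 0.92 (adjusted p = 0.00564) and Tnfrsf1b by 0.84 (adjusted p = 0.0142). Il1rap at 0.76, Il6ra at 0.54 and Lifr at 0.48 did not pass (adjusted p = 0.0509, 0.0607 and 0.163) and did with the block. With the block 8 of 16 were higher, where 9.73% of all genes were. Il1a at 0.89 also passed only with the block (adjusted p = 0.47 without and 0.0438 with it) and had its highest signal, 6.43, on TNF 3. The calls of Lif and Tnfrsf1b were lost without control 1 (adjusted p = 0.0575 and 0.0608), and that of Tnfrsf1b also without TNF 2, and 2 members rose without control 1 or without both arrays of replicate 3.

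Transcription factors and signal transducers of the response rose in 12 of 19 and fell in 0 (median 0.67). Of all genes 3.87% rose and 3.33% fell. The blocked fit called 14 of the 19 higher and 0 lower, where 9.73% of all genes were higher and 11.8% lower. Cebpd was 9.93, 9.60 and 9.22 in TNF cultures 1 to 3, against 8.20, 8.42 and 8.02 in controls 1 to 3, and rose by 1.37 (SE 0.19, 2.58-fold, limma adjusted p = 0.00564). Cebpb rose by 0.75 (adjusted p = 0.00586), while Cebpa, which is prominent in resting liver, differed by -0.04 and Cebpg by 0.37 (adjusted p = 0.112; 0.0163 with the block). Nfkbiz, the nuclear IkB protein that assists the transcription of Lcn2, rose by 1.41 (SE 0.15, adjusted p = 0.00144). Its relatives Bcl3 and Nfkbia rose by 2.46 and 3.35, and the NF-kB subunits Nfkb2, Relb, Rel and Rela by 2.05, 2.05, 1.11 and 0.67.

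On the STAT3 arm, Stat3 rose by 0.58 (SE 0.10, limma adjusted p = 0.0133) and the kinases Tyk2 and Jak2 by 0.83 and 0.61, but Jak1 differed by 0.13. Socs3, the feedback inhibitor that STAT3 induces, differed by 0.35 (adjusted p = 0.266; 0.0259 with the block). The glucocorticoid receptor Nr3c1 at -0.27 and Pias3 at -0.14 did not pass. The call of Jak2 was lost whichever array was omitted (adjusted p up to 0.117, without control 3). That of Stat3 was lost in 4 fits (0.0604, without TNF 2) and that of Rela in 3 (0.0621, without TNF 1). With the block on all 6 arrays, Jak2, Stat3 and Rela passed as higher (limma adjusted p = 0.00821, 0.00182 and 0.00177). Without both arrays of replicate 3, 8 rose.

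Receptors, ligands and partners of the 10 proteins mostly did not pass: of 24 measured, 3 rose and 1 fell (median 0.03). The shares of all genes were 3.87% and 3.33%. Tlr2, a receptor for serum amyloid A, was 11.18, 11.57 and 11.37 in TNF cultures 1 to 3, against 7.31, 7.20 and 7.56 in controls 1 to 3. It rose by 4.01 (SE 0.15, 16.2-fold, limma adjusted p = 2.03e-05), while Tlr4 differed by 0.20. Lrp2, or megalin, which takes up lipocalin-2, was 8.57, 8.29 and 8.10 in TNF cultures 1 to 3, against 9.96, 9.81 and 9.75 in controls 1 to 3. Lrp2 fell by 1.52 (SE 0.14, 2.86-fold lower, adjusted p = 0.000823). The other proposed lipocalin-2 receptor, Slc22a17, differed by -0.40 (adjusted p = 0.148), and the blocked fit called it lower (0.0137).

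Mmp9, a protease that lipocalin-2 binds, rose by 0.61 (limma adjusted p = 0.036), and the iron importer Slc11a2 rose by 0.53 (adjusted p = 0.0418). Omitting single arrays, each kept its call in 1 fit of 6; adjusted p reached 0.138 for Mmp9, without control 1, and 0.154 for Slc11a2, without TNF 2. The iron exporter Slc40a1, which works with ceruloplasmin, differed by 0.03, and the ferritin chains Fth1 and Ftl1 by 0.03 and -0.04. Cd163, the haptoglobin-haemoglobin receptor, differed by 0.08. Lrp1 at -0.49, Hmox1 at -0.56 and Scarb1 at -0.12 did not pass, and the first and second passed as lower with the block (adjusted p = 0.0191 and 0.00335). With the block 4 of the 24 were higher and 4 lower, where 9.73% of all genes were higher and 11.8% lower. The added higher call was C1qb, a chain of complement C1q that microglia make, named after its values were seen (0.56, adjusted p = 0.881 without and 0.0205 with the block). Tnfaip6, which links Ptx3 into the hyaluronan matrix, differed by 0.20. With 1 array left out, 1 rose without TNF 1, TNF 2, control 1 or control 2.

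**Figure D4:**
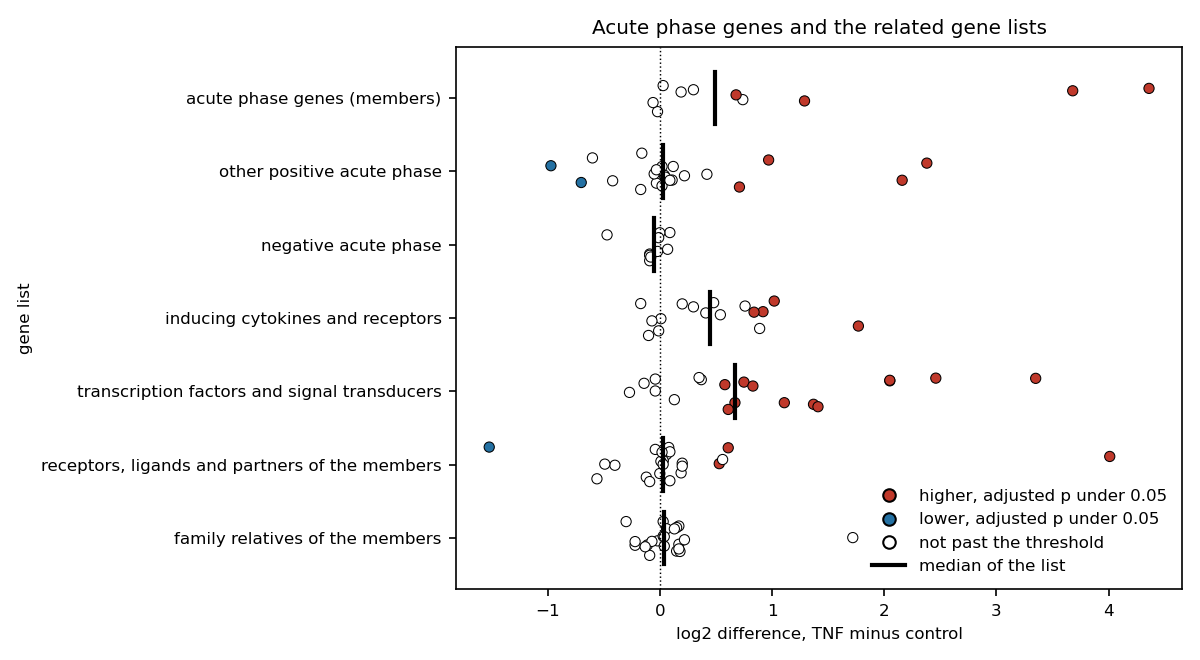
Log2 difference, TNF minus control, of the acute phase genes and of 6 related gene lists; each circle is 1 gene and the black bar is the median of its list. Red circles are higher and blue circles lower at an adjusted p under 0.05, and vertical scatter within a list has no meaning. The transcription factor list has its median at 0.67, and the family relatives at 0.04.

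Relatives of the members by protein family did not pass: 0 of 22 rose or fell with limma, where 7.2% of all genes did. Only 1 had an unadjusted p under 0.05, and 1 was higher with the block, beside 9.73% of all genes. That gene was the lipocalin Apod, at 8.56, 10.46 and 10.08 in TNF cultures 1 to 3, against 7.21, 7.97 and 8.77 in controls 1 to 3. Its difference of 1.72 (SE 0.54, limma adjusted p = 0.116) passed with the block (0.00158) and without TNF 1 (0.028). The lipocalin Ptgds differed by 0.15 and Lcn4 by 0.17, the pentraxins Nptx1 and Nptx2 by 0.15 and -0.22, and the ceruloplasmin homologue Hephl1 by 0.18. Of the Serpina3 genes beside Serpina3n only Serpina3a (-0.22) and Serpina3b (0.17) had a probe set of their own and were analysed here. Apom, Ambp, Lcn3, Lcn4, Lcn8, Ptx4, Hephl1, Serpina3a, Serpina3b, Serpina9 and Serpina12 lay below the lower quartile of all genes on all 6 arrays. A change in signals this dim may be compressed.

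Neutrophils store lipocalin-2 and pentraxin 3 in granules, and hepatocytes are the classical source of plasma acute phase proteins. Of 12 neutrophil markers 0 passed with limma, with or without the block, and 0 had an unadjusted p under 0.05. The list mean ranged from 5.32 to 5.68 in TNF cultures and from 5.37 to 5.64 in controls. Single markers lay between 3.89, for Cxcr2, and 6.90, for Camp. Camp (6.31 to 6.90) and Mpo (6.06 to 6.69) were above the lower quartile on all 6 arrays, while S100a8 was at or below 5.13. Of 11 hepatocyte markers 0 passed in either limma fit and 0 had an unadjusted p under 0.05, with list means of 6.11 to 6.37 with TNF and 6.18 to 6.40 in controls. Among them Ttr was bright in replicate 2, at 10.82 in TNF 2 and 10.96 in control 2, with 7.66 to 8.79 on the other 4 arrays. Ttr is also on the choroid plexus and ependymal marker list. RMA values have no 0, so absence cannot be read from them. Of 11 microglia markers 0 passed with limma without the block and 1 had an unadjusted p under 0.05. With the block 2, Itgam and Cd68, were higher (adjusted p = 0.0137 and 0.0307), where 9.73% of all genes were. The microglia mean was 7.06, 6.46 and 7.39 in TNF cultures 1 to 3, against 6.79, 6.35 and 7.40 in controls 1 to 3. Replicate 2 was the lowest of both groups.

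Of 10 astrocyte markers 3 fell and 0 rose: Aldoc by 1.01, Gja1 by 1.00 and Glul by 0.88. Of all genes 3.33% fell and 3.87% rose. Gfap was 11.20, 11.06 and 11.93 in TNF cultures 1 to 3, against 11.77, 11.55 and 12.40 in controls 1 to 3. Its groups overlapped and it did not pass (-0.51, adjusted p = 0.42), but each TNF culture was below the control of its number, by 0.57, 0.49 and 0.48, and it was lower with the block (0.00356). With the block 6 astrocyte markers were lower and 2 higher: Sox9 (difference -0.76, adjusted p = 0.00117) and the dim S100b (difference -0.40, adjusted p = 0.0364) also were lower. The higher were the water channel Aqp4 (difference 0.60, adjusted p = 0.0069) and the glutamate transporter Slc1a2 (difference 0.60, adjusted p = 0.0123). In each of the endothelial, fibroblast and mural, choroid plexus and ependymal, oligodendrocyte, and neuron lists 1 gene fell and 0 rose: Kdr, Acta2, Folr1, Olig1 and Map2. The median differences of these 5 lists lay between -0.12 and 0.03. With the block 11.8% of all genes were lower and 9.73% higher. It gave 4 of 12 fibroblast and mural markers lower (Tagln, Thy1 and Pdgfrb joining Acta2). Of 9 choroid plexus and ependymal markers 3 were lower (Rsph1 and Dnah5 joining Folr1). Of 10 neuron markers 2 were lower (Stmn2 joining Map2) and 1 higher, Gad1. The endothelial and oligodendrocyte lists had 1 lower each with the block too, of 10 and 9 measured, near the share of all genes. With 1 array omitted, Folr1 lost its call in 4 fits of 6 (adjusted p up to 0.0956, without control 1), Gja1 in 3 (0.0572, without TNF 2) and Acta2 in 3 (0.0632, without control 2). The part of other cell types in the acute phase signals was not tested.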

How the data were processed

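The deposited table held log2 signals for 35544 probe sets on 6 Affymetrix Mouse Gene 1.0 ST arrays, 1 per sample. Per the submitters' processing notes the authors used RMA, which corrects background, normalizes quantiles and summarises probes, and limma, with no versions. The log base was read from the values (2.04 to 14.37). RMA understates large folds and cannot go below a floor for dim signals. Arrays carry no read depth, so their number limits the precision.

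Probe sets were named from the platform annotation. Those with exactly 1 gene symbol (21777) were kept, with the highest-mean probe set per gene, which left 19926 genes. Sample titles gave the groups. Differences (TNF minus control) were tested two-sided, with no block in the main test, by lmFit and eBayes of limma 3.58.1 (R 4.3.3, 4 residual degrees of freedom plus a prior of 3.70), Benjamini-Hochberg adjusted over all genes, threshold 0.05. The fit was also run on simulated data that held no shared replicate effect. That run says nothing on how the pairing of samples described next affects the fit. Replicate numbers paired the samples by the values: deviations from group means correlated at 0.55, 0.65 and 0.75 within numbers 1 to 3. The block is therefore given where it changes a call of a named gene or a list's count, and for some calls lost without an array. Fits that omit arrays had no block, so omitting 1 array left a sample without its pair. Every named gene whose call was lost in those fits passed with the block on all 6 arrays.

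The members and lists were chosen with earlier results of these data known. Every member is named; of each list, all genes past the threshold and up to 4 others with the smallest p, beside a few further members chosen after their values were seen, and the 5 genes most correlated with Lcn2. Promoter windows came from RefSeq (GRCm38.p6) and were searched and aligned with Python 3.11.15 and Biopython 1.88. Alternatives changed the scaling, dim-gene filter, variance model, array weights, block, probe set, arrays and threshold.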

Additional observations from a re-analysis of the deposited data

How the results depend on the processing

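All 10 members kept the direction of any called difference in every alternative run, and Lcn2 and Ptx3 stayed past the threshold in all 17. Saa3 did so in the 16 that tested it; Serpina3n and Cp changed side as stated with their values, and Serpina3n also missed an adjusted p of 0.01 (0.0143). The filters kept 6 members (below the lower quartile removed) and 4 (below the median removed). With 1 array left out, 3 to 5 members were higher. Over all genes, the block gave 1938 higher and 2351 lower, an adjusted p of 0.01 gave 386 and 195, and omitting both arrays of replicate 3 gave 401 and 231. Omitting 1 array gave 465 to 669 higher and 315 to 455 lower. Testing all 35544 probe sets called 436 probe sets lower, a count of another unit than the 663 genes lower in the main test. In the related lists together, 23 were higher and 3 lower. These became 13 and 1 at an adjusted p of 0.01, and also without both arrays of replicate 3. Leaving out 1 array gave 15 to 21 higher and 1 to 3 lower, and the replicate block gave 32 higher and 7 lower. The lowest likeness to Lcn2 among the 5 named genes was 0.94 by Spearman's rho, against 0.9986 by Pearson's r. The causes of these changes were not tested, and fits that omit arrays also had fewer samples. Median centring and quantile normalization moved the median of all genes by under 0.1. The replicate block changed no other call among the members than that of Cp. Signals below the lower quartile, as for Saa1, Saa2, Saa4, Orm1, Orm2, Il6, Crp, Alb and Saa3 in controls, limit what their intervals and folds show.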
